A study of Homo sapiens with 4 samples.

Results

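The genes described here are 49 neighbours on the proximal long arm of chromosome 22, which start between 17 Mb of hg38 and a point just beyond SELENOM and which were chosen on their higher or lower levels in 2 of the 4 cell lines studied. They are 49 of the 19973 genes for which corrected counts were deposited, and 49 of 177 such genes in this interval. The first member is ATP6V1E1 (22, 17592136 to 17628749, minus strand) and the last is SELENOM (22, 31104772 to 31120069, minus strand). All 49 were found in the table and in the annotation, with 23 on the plus and 26 on the minus strand. Starts of neighbouring members were never further apart than 3.30 Mb, the gap between SNRPD3 and PITPNB, and this gap divides them into 32 proximal and 17 distal members. The gap is a matter of position alone, but the division was made after the values were seen.

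Transcripts of single cells were counted in 4 lines, with 1 library per line. R2 had passed 2 further times through mouse brain under osimertinib, an inhibitor of mutant EGFR, and C2 had done so under vehicle. Both descend from PC9-BrM4, which was selected for brain metastasis over 4 rounds from PC9, a human lung adenocarcinoma line with a deletion in EGFR exon 19. All lines were grown in culture for 3 days without drug, each library pooled 3 passages of its line, and all carry viral reporter genes. Only C2 and R2 were infected with a further virus carrying eGFP. This step cannot be told apart from the other differences between C2/R2 and PC9/PC9-BrM4. The cells of all lines had been divided together into 19 sub-populations, numbered 0 to 18, and the deposited value is the mean over the cells of a sub-population. Sub-populations 5 and 1 were most prevalent in R2, 4 and 0 in C2, 6 and 7 in PC9-BrM4 and 3 and 2 in PC9. In each case the mitotic one is named first. Sub-population 8 was enriched in both C2 and R2, and 9 to 18 are not placed here. Columns are named below after these lines. The study found sub-populations that dominate C2 or R2 at lower frequency in PC9 and PC9-BrM4. A column can therefore hold cells of several lines, in shares not measured here. Levels are given as CPM, counts per 1000000 corrected transcripts of a column. An effect is the mean log2(CPM + 5) of one group of columns minus that of another, a scale that understates the change of low genes.

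The columns are not replicates, and with 1 library per line no test of a difference between lines was possible. Differences are therefore given as values, with the overlap of the columns and the counting error. The table held 24441 cells in all, from 111 to 3373 per sub-population, with 14022 to 15409 corrected transcripts per cell in sub-populations 0 to 8. In the same columns, 7 of 7 epithelial markers reached 10 CPM and summed to 17279 to 25188 CPM. The 3 leukocyte markers measured summed to 0.50 to 2.07 CPM, the 3 endothelial markers to 1.09 to 4.32 CPM and the 1 fibroblast marker measured to 1.64 to 2.60 CPM. The 3 neural markers summed to 34.2 to 81.1 CPM, nearly all of it MBP, and the neuronal RBFOX3 and the astrocytic GFAP reached at most 0.365 CPM.

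The proximal long arm of chromosome 22 is known for the deletion that causes DiGeorge syndrome and for genes altered in tumours, among them SMARCB1, NF2, CHEK2, BCR and EWSR1. The members have no common pathway. They encode parts of large complexes, such as the spliceosome, the BAF chromatin remodeler, Mediator, the mitochondrial ribosome and the vacuolar proton pump, besides enzymes, cytokines and mitochondrial proteins.

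Promoters were examined because the members share a neighbourhood and many moved together. RefSeq entries (GRCh38.p14) were matched for 44 of the 49 members, 29 proximal and 15 distal, and UFD1, RANBP1, SELENOM, TRMT2A and ZNRF3 were not matched. The 250 bases before the start are shown for some members, chosen as examples without a fixed rule. They are 3 proximal members that were higher in C2/R2 and EWSR1, the measured distal member that was lower without overlap. Capitals mark GC boxes, the letters GGGCGG or their reverse complement. The stretches are chr22:19432295-19432544 for MRPL40, chr22:20858757-20859006 for SNAP29, chr22:23894133-23894382 for MIF and chr22:29268018-29268267 for EWSR1, each on the plus strand.

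MRPL40: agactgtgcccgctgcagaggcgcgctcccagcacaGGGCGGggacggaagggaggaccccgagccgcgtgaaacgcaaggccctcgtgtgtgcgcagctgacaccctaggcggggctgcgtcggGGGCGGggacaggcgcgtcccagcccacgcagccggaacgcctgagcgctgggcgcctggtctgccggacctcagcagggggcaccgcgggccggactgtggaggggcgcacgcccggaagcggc
SNAP29: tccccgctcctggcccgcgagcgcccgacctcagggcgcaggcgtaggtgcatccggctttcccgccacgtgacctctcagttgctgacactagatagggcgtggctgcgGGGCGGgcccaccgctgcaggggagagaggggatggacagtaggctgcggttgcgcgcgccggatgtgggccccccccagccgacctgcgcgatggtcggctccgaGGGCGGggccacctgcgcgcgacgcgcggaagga
MIF: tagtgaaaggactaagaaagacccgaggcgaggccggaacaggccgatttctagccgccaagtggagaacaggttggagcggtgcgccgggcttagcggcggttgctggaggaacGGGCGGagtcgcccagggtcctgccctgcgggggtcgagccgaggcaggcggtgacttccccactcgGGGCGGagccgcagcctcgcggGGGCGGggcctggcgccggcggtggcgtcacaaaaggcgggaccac
EWSR1: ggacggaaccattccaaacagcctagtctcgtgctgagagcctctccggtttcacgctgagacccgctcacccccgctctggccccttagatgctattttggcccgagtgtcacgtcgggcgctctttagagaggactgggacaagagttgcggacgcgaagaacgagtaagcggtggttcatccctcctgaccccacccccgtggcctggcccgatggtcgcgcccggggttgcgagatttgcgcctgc

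The stretch before MIF held 3 GC boxes, those before MRPL40 and SNAP29 held 2 each, and the stretch before EWSR1 held 0. Their GC content was 75.6% for MRPL40, 73.6% for SNAP29, 70.4% for MIF and 62.8% for EWSR1. On either strand, a GC box lay in 22 of the 29 proximal stretches (75.9%) and in 10 of the 15 distal ones (66.7%), against 42.6% of all 35116 promoter entries. The CCAAT box, with the letters CCAAT, was in 8 proximal (27.6%) and 7 distal stretches (46.7%), against 32.0% of all entries. The TATA box, searched as TATAAA, was in 1 proximal (3.45%) and 0 distal stretches, against 10.7%, and the E-box, searched as CACGTG, in 3 (10.3%) and 0, against 6.34%. These letter matches are descriptions, and both proximal and distal members were GC-rich (median 70.4% proximal and 64.8% distal, against 58% over all entries). In 3 pairs of members, the starts given by GENCODE lay head to head within 1000 bases. The stretch before one gene then also lies near the start of the other. They were PI4KA and SNAP29, 196 bases apart, HIRA and MRPL40, 812 bases apart, and GUCD1 and SNRPD3, 861 bases apart. By RefSeq, GUCD1 on the minus strand starts at 24555894 and SNRPD3 on the plus strand at 24555650, so that these genes overlap there.

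The first comparison set the columns of C2 and R2 against those of PC9-BrM4 and PC9, and it is the one on which the members were chosen, so that its values are a description. Of the 49 members, 38 were measured, with a mean of at least 10 CPM over the 8 columns, and 36 of these 38 had an effect above 0 (median 0.68). Without overlap of the columns, 24 were higher by at least 0.5, against 5.79% of all 7397 measured genes, and 13 were higher by at least 1, against 1.42% of all genes. None was lower by at least 0.5, against 10.7% of all genes. The median effect of all measured genes was −0.14, and relative to it the members' median was 0.82. The 95% counting error of an effect was ± 0.051 at the median over the members.

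The difference was larger in the proximal than in the distal members, and most distal members had effects of the same sign. All 25 measured proximal members were higher in C2/R2, with a median effect of 0.97, a range of 0.29 to 1.38 and a median fold of 2.08 in CPM. Of these, 20 were higher by at least 0.5 without overlap and 12 by at least 1. Among the 13 measured distal members the median effect was 0.24, 11 were above 0 (84.6%, against 35.1% of all genes), the range ran from −0.37 to 2.11, and 4 were higher by at least 0.5 without overlap. Relative to the median of all genes, the median was 1.11 for the proximal and 0.38 for the distal members, so that the genes called a block differed in size between its 2 stretches. The remaining 11 members were under the filter. Of these, the 7 proximal ones had effects of 0.10 to 0.61 and the 4 distal ones had −0.25 to 0.24, on levels of 0.810 to 9.59 CPM.

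**Figure D1:**
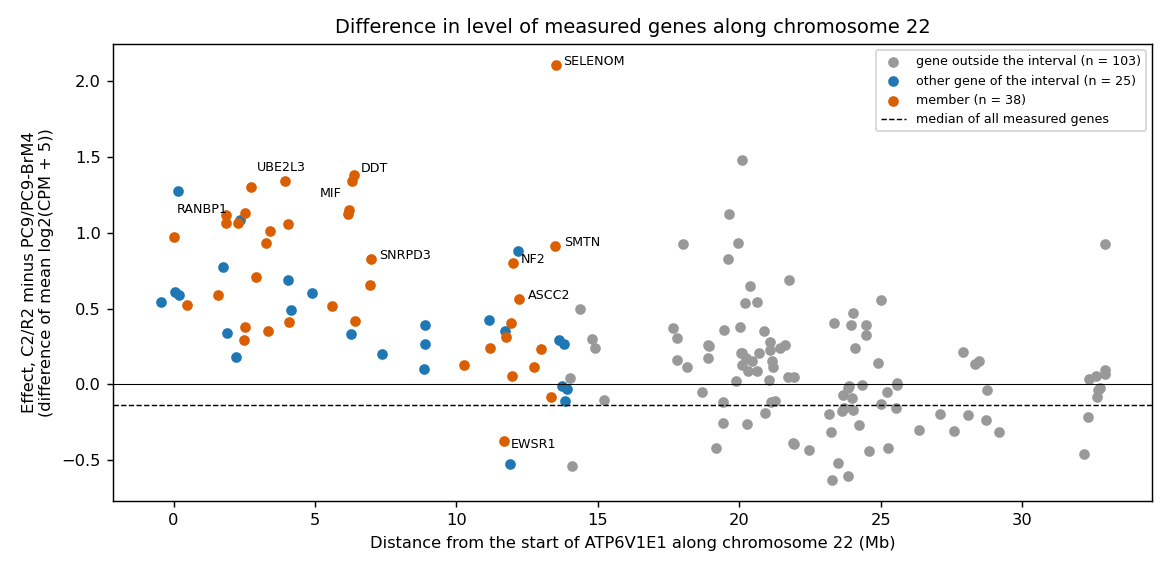
Effect of each measured gene of chromosome 22 (C2/R2 minus PC9/PC9-BrM4, difference of mean log2(CPM + 5)) by the distance of its start from that of ATP6V1E1 in Mb; orange points are members, blue points other genes of the interval, grey points genes outside it, and the dashed line is the median of all measured genes at −0.14. All 25 proximal members lie above 0, while the 13 distal members run from −0.37 (EWSR1) to 2.11 (SELENOM).

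Of the genes that act in signalling, MIF, a cytokine, and its neighbour and relative DDT were among the largest changes. MIF (ENSG00000240972.2; 22, 23894383 to 23895227, plus strand) had 369 and 360 CPM in R2 and 330 and 323 CPM in C2, against 121 and 128 CPM in PC9-BrM4 and 137 and 149 CPM in PC9. The lowest C2/R2 column was above the highest of the other side, and the effect was 1.34. DDT had 271 and 255 CPM in R2 and 229 and 221 CPM in C2, against 82.3 and 82.1 CPM in PC9-BrM4 and 96.6 and 102 CPM in PC9 (effect 1.38). Both genes have near-identical copies, DDTL for DDT and pseudogenes for MIF, and reads could have been divided between them. CRKL, an adaptor of receptor tyrosine kinases, had a smaller effect of 0.35 and BCR, which encodes a signalling protein and also has copies, had 0.51.

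Of the genes of protein turnover, UBE2L3, which encodes a ubiquitin-conjugating enzyme, had 332 and 334 CPM in R2 and 273 and 289 CPM in C2, against 111 and 126 CPM in PC9-BrM4 and 109 and 127 CPM in PC9. The groups did not overlap and the effect was 1.34, and 2.10 in the table of uncorrected counts. UFD1, a cofactor of the p97 segregase, had 202 and 221 CPM in R2 and 176 and 191 CPM in C2, against 84.2 and 98.1 CPM in PC9-BrM4 and 84.0 and 100.4 CPM in PC9 (effect 1.07, and 1.63 in the uncorrected counts). PPIL2, a cyclophilin-type isomerase, had an effect of 0.41 with overlapping columns.

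The nuclear proteins included the most abundant member. RANBP1, which assists the hydrolysis of GTP by Ran, had 967 and 856 CPM in R2 and 898 and 851 CPM in C2, against 412 and 433 CPM in PC9-BrM4 and 382 and 394 CPM in PC9. The effect was 1.13, a fold of 2.20. SNRPD3, a core protein of spliceosomal snRNPs, had 395 and 387 CPM in R2 and 371 and 367 CPM in C2, against 202 and 224 CPM in PC9-BrM4 and 204 and 218 CPM in PC9, so that the groups again stood apart (effect 0.83). SMARCB1, a core subunit of the BAF complex, had 124 and 105 CPM in R2 and 106 and 94.3 CPM in C2, against 45.4 and 43.3 CPM in PC9-BrM4 and 46.7 and 46.4 CPM in PC9 (effect 1.15). THAP7, a transcriptional repressor, had an effect of 1.01 and MED15, a subunit of the Mediator tail, had 0.71. DGCR8, which acts with DROSHA in microRNA processing, TRMT2A, a tRNA methyltransferase, and CABIN1, an inhibitor of calcineurin, had effects of 0.29, 0.38 and 0.42, each with overlapping columns.

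Of the mitochondrial proteins, CHCHD10, a protein of the intermembrane space, had 338 and 320 CPM in R2 and 266 and 268 CPM in C2, against 123 and 130 CPM in PC9-BrM4 and 135 and 145 CPM in PC9. It was apart in every column with an effect of 1.13. MRPL40, of the large mitochondrial ribosomal subunit, had 208 and 206 CPM in R2 and 149 and 162 CPM in C2, against 78.6 and 81.9 CPM in PC9-BrM4 and 73.9 and 85.4 CPM in PC9 (effect 1.12). TXNRD2, the mitochondrial thioredoxin reductase, was less abundant, with 37.8 and 30.2 CPM in R2 and 25.4 and 22.4 CPM in C2, against 11.3 and 10.1 CPM in PC9-BrM4 and 12.1 and 10.8 CPM in PC9 (effect 1.06, and 0.65 with a pseudocount of 20). SLC25A1, the citrate carrier, had an effect of 0.59.

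Genes of membranes and organelles moved in the same direction. ATP6V1E1, of the vacuolar proton pump, had an effect of 0.97, SNAP29, a SNARE of membrane fusion, had 0.93, and PEX26, of peroxisomal protein import, had 0.52. DGCR6L had 101 and 84.1 CPM in R2 and 79.4 and 64.3 CPM in C2, against 32.9 and 25.1 CPM in PC9-BrM4 and 32.4 and 30.0 CPM in PC9 (effect 1.30), with DGCR6 as a near-identical copy. YDJC had 132 and 107 CPM in R2 and 106 and 92.1 CPM in C2, against 52.9 and 44.6 CPM in PC9-BrM4 and 53.4 and 47.0 CPM in PC9 (effect 1.06). GUCD1 had an effect of 0.66. In the head-to-head pairs both genes had effects above 0 and the less abundant gene had the smaller one, with 0.45 for PI4KA and 0.93 for SNAP29, 0.46 for HIRA and 1.12 for MRPL40, and 0.66 for GUCD1 and 0.83 for SNRPD3. PI4KA, a phosphatidylinositol kinase, and HIRA, a histone chaperone, were under the filter, as were the proximal members TANGO2 (0.58), ZDHHC8, a palmitoyltransferase (0.38), LZTR1, an adaptor in the degradation of RAS proteins (0.10), TOP3B, a topoisomerase (0.29), and SPECC1L, a cytoskeletal protein (0.61). PI4KA and TOP3B have near-identical copies.

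**Figure D2:**
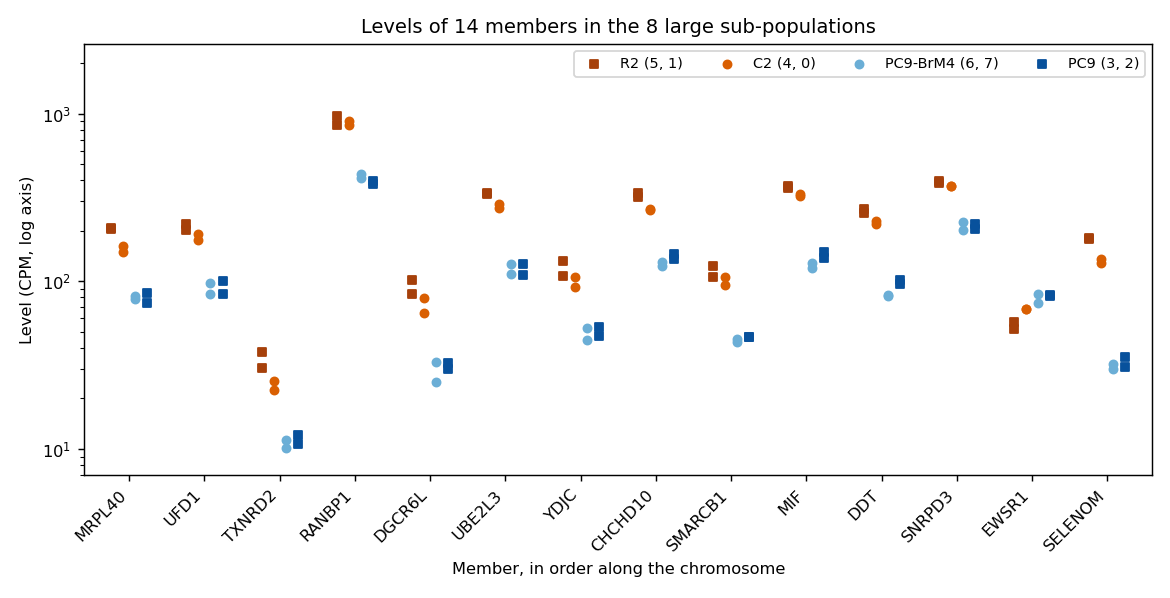
Level of 14 members in CPM (log axis) in the order of the chromosome, with 1 point for each of the 2 large sub-populations of R2, C2, PC9-BrM4 and PC9. For 13 of the 14 members every C2 and R2 point lies above every PC9-BrM4 and PC9 point; EWSR1 is the exception, with 51.6 to 68.6 CPM in C2/R2 against 73.7 to 83.8 CPM in the other lines.

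Of the distal members, SELENOM, which encodes a selenoprotein of the endoplasmic reticulum, had the largest effect of all 49. It had 182 and 178 CPM in R2 and 136 and 128 CPM in C2, against 32.2 and 29.9 CPM in PC9-BrM4 and 30.6 and 35.2 CPM in PC9, an effect of 2.11 and a fold of 4.88. SMTN, a cytoskeletal protein known from smooth muscle, had an effect of 0.91. NF2, which encodes the tumour suppressor merlin, had 0.80 and ASCC2, of the ASC-1 complex, had 0.56, all 3 without overlap.

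EWSR1, an RNA-binding protein, was the measured distal member that stood apart in the other direction. It had 56.8 and 51.6 CPM in R2 and 68.0 and 68.6 CPM in C2, against 83.8 and 73.7 CPM in PC9-BrM4 and 81.1 and 82.4 CPM in PC9 (effect −0.37, and −0.24 relative to the median of all genes). The others were close to 0 or moderately higher. THOC5, of the THO mRNA export complex, had 0.41 and AP1B1, of the AP-1 clathrin adaptor, had 0.31, both without overlap. With overlap, XBP1, a transcription factor of the unfolded protein response, had 0.24, PES1, of ribosome biogenesis, had 0.24, PITPNB, a phosphatidylinositol transfer protein, had 0.13, SF3A1, a splicing factor, had 0.12, NIPSNAP1, a mitochondrial protein, had 0.06 and MORC2, a chromatin ATPase, had −0.08. Under the filter, CHEK2, a checkpoint kinase with many near-identical copies, had −0.25, ZNRF3, a ubiquitin ligase of Wnt receptors, had −0.04, MTMR3, a phosphoinositide phosphatase, had 0.24 and TTC28 had 0.10.

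The effect moved with transcript length and with level in the proximal members, but hardly in the distal ones. Across the 38 measured members, Spearman's rank correlation of the effect was −0.55 with the length of the annotated transcript and 0.58 with the mean CPM, and across 7167 measured genes with a position it was −0.29 and 0.13. Neighbouring genes are not independent and share the same libraries, so these are descriptions. With the median of genes of similar length subtracted, the members' median effect was 0.85, beside 0.82 with only the median of all genes subtracted. For the proximal members the same medians were 1.02 with length and 1.11 without, and for the distal members 0.33 and 0.38. The part of length in the effects was not tested beyond this adjustment. Among the 25 proximal members, the rank correlation was −0.72 with length and 0.81 with level. Among the 13 distal members, it was −0.04 and −0.05. The pseudocount of 5 lowers the effects of low genes by construction.

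Genes of the interval that are not members were examined beside them. Between the start of the interval and SNRPD3, all 12 measured genes that are not members had effects above 0, with a median of 0.60, and 8 of them were higher by at least 0.5 without overlap. The highest was BID, a BH3-only regulator of apoptosis, with 183 CPM in C2/R2 against 72.6 CPM in PC9/PC9-BrM4 (effect 1.28). C22orf39 had an effect of 0.77 and SDF2L1, of the endoplasmic reticulum, had 0.69. After SNRPD3, 9 of 13 non-members were above 0 with a median of 0.27. UQCR10, of respiratory complex III, was highest with 435 CPM against 233 CPM (effect 0.88), and the lowest were NEFH with −0.53, EIF4ENIF1 with −0.11, SFI1 with −0.03, PATZ1 with −0.01 and HPS4 with 0.10. All measured genes of the proximal stretch, members and neighbours, were thus above 0. Of the 128 non-members of the whole interval, 25 were measured. The interval was set around members chosen on this same comparison, so that the neighbours' values are a description too.

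Along the chromosome, the median effect of all measured genes was 0.69 from 17 to 20 Mb (14 genes), 0.70 from 20 to 23 Mb (14 genes) and 0.74 from 23 to 26 Mb (10 genes), with every gene above 0. It was 0.26 from 26 to 29 Mb (6 genes), 0.25 from 29 to 32 Mb (22 genes), 0.21 from 35 to 38 Mb (27 genes) and −0.06 from 41 to 44 Mb (26 genes). Genes above 0 were 6 of 6 from 26 to 29 Mb, 15 of 22 from 29 to 32 Mb, 22 of 27 from 35 to 38 Mb, 16 of 25 from 38 to 41 Mb and 8 of 26 from 41 to 44 Mb, so that the medians were lower beyond 26 Mb while most genes up to 41 Mb were still above 0. The step size was set after the values were seen. The first measured gene inside the lower bound of the rule was HDHD5, with an effect of 0.54, and no measured gene lay outside it. At the upper bound, EIF4ENIF1 and SFI1 lay just inside with −0.11 and −0.03, and PISD and PRR14L just outside with 0.04 and −0.54.

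Across all chromosomes, 142 windows of 15 Mb held at least 20 measured genes, and the window of chromosome 22 from 15 to 30 Mb had the highest median effect, 0.59 over 53 genes, of which 96.2% were above 0. It holds the genes chosen for this pattern, so its rank is a description. The next were chromosome 7 from 135 to 150 Mb with 0.51 and chromosome 16 from 60 to 75 Mb with 0.43, and the lowest was chromosome 1 from 150 to 165 Mb with −0.66. The following window of chromosome 22, from 30 to 45 Mb, had a median of 0.11 over 95 genes. Long stretches with a shared direction were therefore also found elsewhere in these lines.

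**Figure D3:**
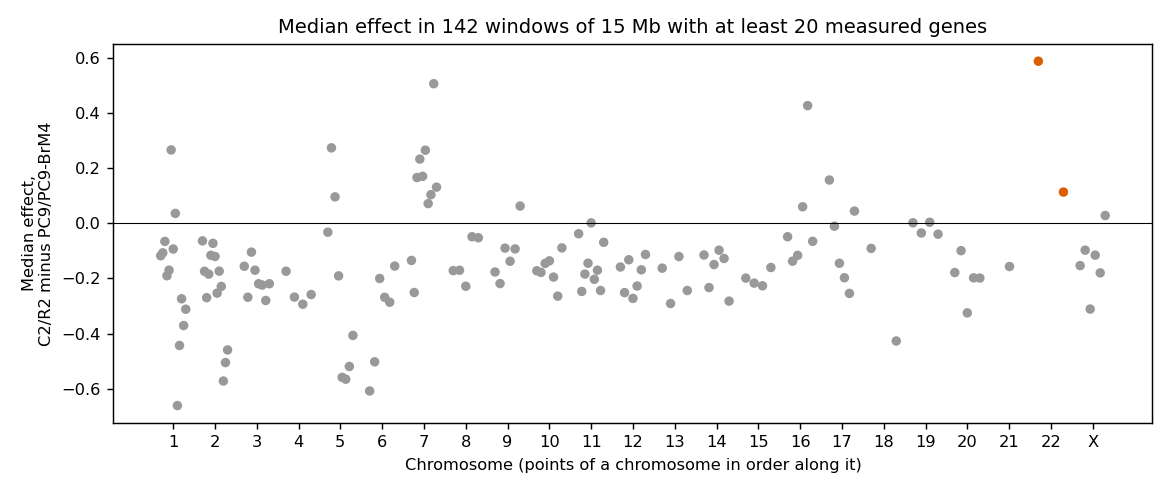
Median effect (C2/R2 minus PC9/PC9-BrM4) in 142 windows of 15 Mb with at least 20 measured genes, by chromosome and in order along it, with chromosome 22 in orange. The first window of chromosome 22 is the highest at 0.59 and the second lies at 0.11, and windows of chromosomes 1, 6, 2 and 5 fall below −0.5.

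R2 and C2 were each set against PC9-BrM4, from which both descend. These comparisons share the PC9-BrM4 columns and reuse columns on which the members were chosen, so that their values are a description. In R2, 28 of 38 measured members were higher by at least 0.5 without overlap, against 10.7% of all genes, with a median effect of 1.05 for the proximal and 0.32 for the distal members. In C2, 25 of 38 were higher, against 8.06% of all genes, with medians of 0.91 and 0.39. MIF had effects of 1.51 in R2 and 1.36 in C2, DDT 1.62 and 1.40, UBE2L3 1.46 and 1.22, and SELENOM 2.36 and 1.93.

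R2 against C2 and PC9-BrM4 against PC9 do not use the contrast on which the members were chosen. In R2 against C2, 41 members were measured and their median effect was 0.08, beside −0.02 for all genes. The median was 0.13 for the 28 proximal members measured and −0.14 for the 13 distal ones. By at least 0.5, 0 members were higher (0.925% of all genes) and 1 was lower (9.87% of all genes), so that the count lay near or under the background. The 1 lower member was PITPNB, with 43.6 and 38.3 CPM in R2 against 68.6 and 60.2 CPM in C2 (effect −0.59). The largest effects in the other direction, all under 0.5, were 0.43 for SELENOM, 0.43 for TXNRD2, 0.42 for THAP7, whose columns overlapped, 0.40 for MRPL40 and 0.35 for DGCR6L. In this comparison the rank correlation of the effect with transcript length was −0.56 over the 38 members measured in the first comparison and −0.65 over all genes, and the part of length in the members' values was not tested for single genes. In PC9-BrM4 against PC9, 36 members were measured with a median effect of −0.07, beside −0.11 for all genes, and a range of −0.29 to 0.19. None was higher by at least 0.5 (0.714% of all genes) and none lower (3.94% of all genes). In the table of uncorrected counts, 6 members were higher in R2 against C2 in place of 0, and PC9-BrM4 against PC9 had a median of −0.27 in place of −0.07, with 3 members lower in place of 0. Both counts within these pairs of lines thus depended on the table used. The share of all genes called in the uncorrected counts was not computed for these pairs. Whether the members' counts there exceed that share was not tested. The part that cells of the other line of a pair have in these columns was not tested.

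**Figure D4:**
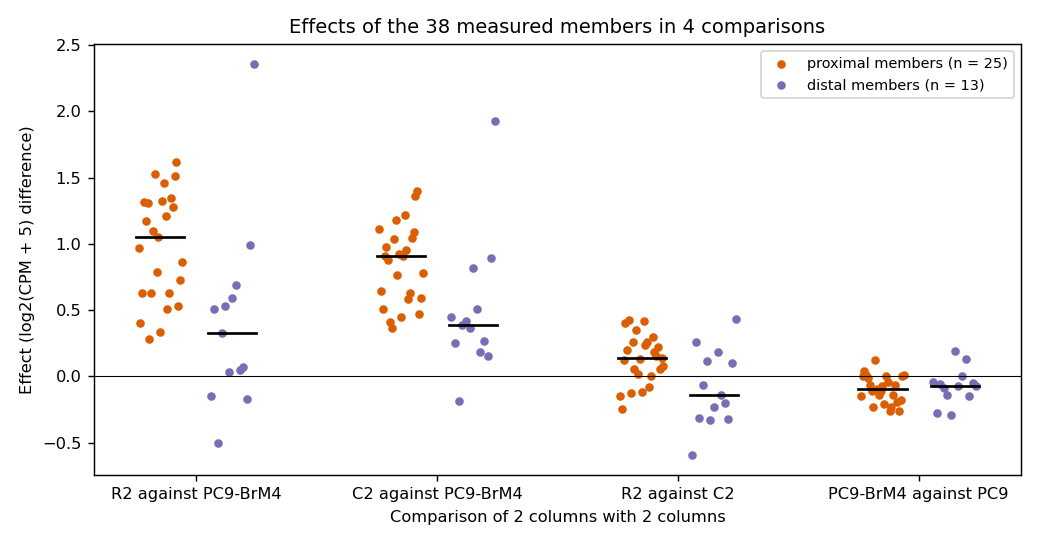
Effect of each of the 38 measured members (points; bars are medians) in R2 against PC9-BrM4, C2 against PC9-BrM4, R2 against C2 and PC9-BrM4 against PC9, with the 25 proximal members in orange and the 13 distal members in violet. The proximal medians are 1.05 and 0.91 in the first and second comparison, and in the last every member lies between −0.29 and 0.19.

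Each line has a mitotic and a non-mitotic large sub-population, and 8 G2/M genes were higher in the mitotic one by a median of 0.83 in R2, 0.80 in C2, 0.50 in PC9-BrM4 and 0.86 in PC9. For the members, the mitotic columns had a median effect of 0.20, beside 0.18 for all genes. None was higher by at least 0.5 without overlap, against 2.66% of all genes, and none lower, against 0% of all genes. SMTN had the largest effect, 0.62, and was higher in the mitotic column by 0.65 in R2, 0.72 in C2, 0.46 in PC9-BrM4 and 0.62 in PC9. In C2/R2 against PC9/PC9-BrM4, the non-mitotic columns alone gave a median effect of 0.67 over the members, and the mitotic columns alone gave 0.64. Both are parts of the comparison on which the members were chosen, so these medians are a description.

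Sub-population 8, which holds cells of C2 and R2, was set against the same PC9/PC9-BrM4 columns. Its own values are outside the contrast on which the members were chosen, but the PC9/PC9-BrM4 columns are part of it, so that the counts are a description. In it 21 of 38 members were higher by at least 0.5 without overlap, against 8.63% of all genes, and 1 was lower, against 26.4% of all genes. The proximal median was 0.69, with 25 of 25 above 0, and the distal median was 0.09. MIF had 323 CPM, DDT 256 CPM and SELENOM 216 CPM in sub-population 8, values within or above those of C2 and R2. RANBP1, with 460 CPM, and SNRPD3, with 259.5 CPM, were nearer to the 382 to 433 CPM and 202 to 224 CPM of PC9/PC9-BrM4, with effects of 0.18 and 0.29. EWSR1 was the member that was lower, with 43.4 CPM (effect −0.81).

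The 10 smaller sub-populations, 9 to 18, are not placed in a line, and they were described by their likeness to either side over 7001 measured genes of other chromosomes. In 5 of them, 9, 10, 14, 15 and 17, Spearman's rank correlation was higher to the mean of C2/R2 than to that of PC9/PC9-BrM4, and in 5, 11, 12, 13, 16 and 18, it was lower. In the first 5, the median of the proximal members lay 0.85 to 1.23 above the median of the genes off chromosome 22, and 23 to 25 of 25 members were above it. In the other 5 this difference was −0.04 to 0.62, with 12 to 20 of 25 members above. The 2 sets did not overlap. Members and sides both come from the same C2/R2 and PC9/PC9-BrM4 columns. A separation was therefore favoured beforehand, and these values are a description. The highest values of the second set were 0.44 in sub-population 13 and 0.62 in 16. Sub-populations 13, 14 and 16 had relative depths of 0.412, 0.476 and 0.495 before correction, against 0.97 to 1.06 in the others, and the medians of all genes off chromosome 22 were −0.61, −0.60 and −1.43 there. The part of depth in their values was not tested. Sub-population 9 was close to both sides over other chromosomes (rank correlation 0.970 to C2/R2 and 0.957 to PC9/PC9-BrM4), while its proximal members summed to 3583 CPM, beside 3345 to 4025 CPM in C2/R2 and 1642 to 1698 CPM in PC9/PC9-BrM4.

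**Figure D5:**
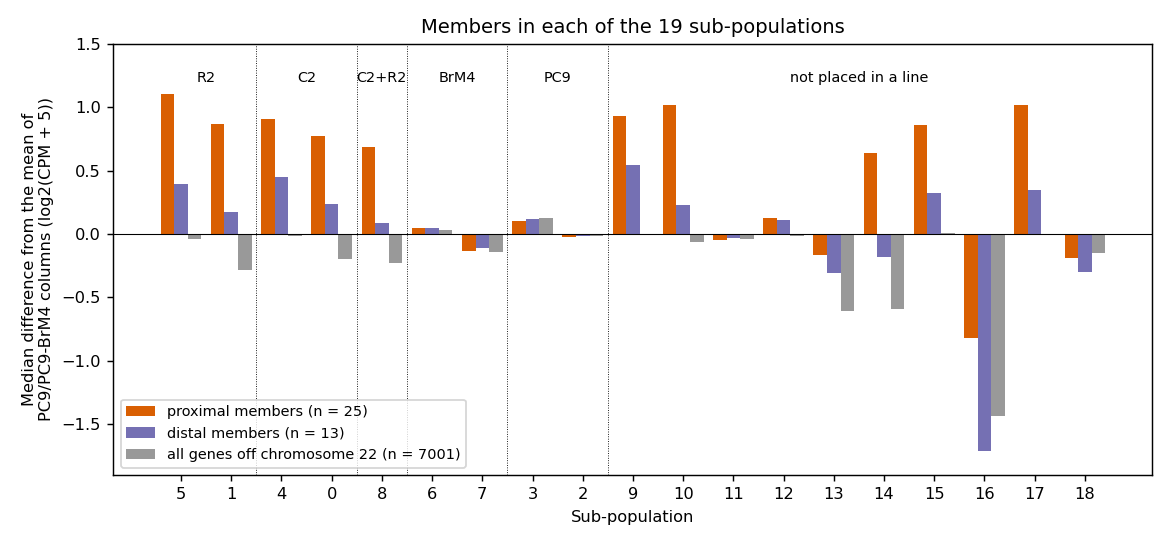
Median difference from the mean of the PC9/PC9-BrM4 columns (log2(CPM + 5)) in each of the 19 sub-populations for the 25 proximal members (orange), the 13 distal members (violet) and 7001 genes off chromosome 22 (grey). The orange bar is at 0.64 or higher in the C2 and R2 columns and in 8, 9, 10, 14, 15 and 17, and at 0.13 or lower in the others.

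Many members are subunits of complexes, or act with other proteins, whose genes lie mostly elsewhere in the genome. These partner genes were examined to see whether they were at higher levels too. Targets of the transcription factor XBP1 were counted among them, and RANGAP1 lies on chromosome 22 outside the interval. Of 140 measured partner genes of 16 groups, 57 had effects above 0, with a median of −0.07, beside −0.14 for all genes. At a size of 0.5 without overlap, 6 were higher and 16 lower, against 5.79% and 10.7% of all genes. The partners' median thus lay near that of all genes. Partners were not set against the windows in which they lie, whose medians off chromosome 22 ran from −0.66 to 0.51. The part of position in the effects of single partners was not tested. The 6 other Sm core proteins of SNRPD3 ran from −0.23 (SNRPD1) to 0.09 (SNRPG), and none passed the size. Of the 15 BAF partners of SMARCB1, 3 were lower and 0 higher, from SMARCC1 with 51.9 CPM in C2/R2 against 87.3 CPM in PC9/PC9-BrM4 (−0.72) to SMARCD3 (0.68, with overlap). Of the 7 genes of the Ran cycle, XPO1, an export receptor, had −0.66 and NUTF2, which imports Ran, had 0.56.

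Among 46 other genes of the large mitochondrial ribosome, 22 were above 0, 0 were higher and 4 were lower, from MRPL24 (−0.86) to MRPL54 (0.45). The partners of UFD1, NPLOC4 and VCP, had effects of 0.50 and −0.06. In the V1 part of the proton pump, 2 of 7 partners of ATP6V1E1 were higher, ATP6V1F with 248 CPM against 121 CPM and ATP6V1D (0.82), while ATP6V1A had −0.22. In Mediator, 0 of 19 partners of MED15 were higher and 1 was lower, from MED30 (−0.51) to MED31 (0.48). DROSHA, the partner of DGCR8, had 0.19. Of the partners of HIRA, ASF1A had −0.51 and UBN2 0.06, and of those of PI4KA, TTC7A had −0.16 and EFR3A −0.05.

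Among partners of distal members, SF3B3 (0.72) and SF3B1 (−0.76) marked the ends of the 8 genes that act with SF3A1. In the THO list, DDX39B had −0.80 and ALYREF −0.01, with 0 of 7 above 0. WDR12 and BOP1, which act with PES1, had −0.94 and −0.04. The AP-1 adaptor ran from AP1S3 (−0.46) to AP1S1 (0.34), and the ASC-1 complex from ASCC3 (−0.50) to ASCC1 (−0.13). Of 6 measured targets of XBP1, PDIA4 was higher with 166 CPM against 89.1 CPM (0.83), and the lowest was DNAJC3 (−0.31).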

How the data were processed

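Single-cell libraries of 4 lines were made by the authors with the 10x 3′ chemistry. Per the study's methods, alignment to hg38 used Cell Ranger, and counts were corrected for depth in Seurat 3 with sctransform, with the mitochondrial percentage as covariate. The values deposited by the authors are mean corrected counts per cell of 19 sub-populations. Doublets were not assessed here. A table with other values deposited by the authors, the mean of e to the power of the uncorrected count minus 1, served as an alternative: mean counts were derived from it by taking the counts of a column as Poisson distributed, and 140 overflowed values were left out. Cell numbers were recovered as the smallest number that gave whole counts within 0.001, and 0 columns were left unused.

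Columns were rescaled to CPM. Genes were measured at a mean of at least 10 CPM, the pseudocount was 5, and calls needed an effect of 0.5 or 1 and no overlap of the columns. Intervals at 95% are exact Poisson or its normal approximation and cover counting error only: for the 14 members given in every large column, the half-width was at most 14.7% of a value and 3.11% at the median. No test was applied: a line had 1 library, and the columns were cut from the cells of all lines by a clustering that used all genes. Members and lists were chosen with earlier results of these data known. The sub-populations' lines follow the study's text for 0, 1, 4, 5 and 8 and its plot for 2, 3, 6 and 7. Every member is named. Values in every large column are given for the 12 members of highest level and the 12 of largest effect, which made 14. Of genes that are not members, the 5 highest and 5 lowest of the interval are named, except 1 that is not reported here, and of each partner list the ends. Positions come from GENCODE 44 and promoters from RefSeq, whose start equalled that of GENCODE for 36 of 44 members. Effects and calls were tried on simulated counts with planted changes, drawn from a shared mean profile with Poisson error only. This checks the calculation and not differences between libraries or lines. Python 3.11.15, pandas 2.3.3, numpy 2.4.6, scipy 1.17.1 and matplotlib 3.10.9 were used. Alternatives were the uncorrected counts, pseudocounts of 1 and 20, a filter of 50 CPM or none, no rescaling, centring, adjustment for transcript length, each column left out, mitotic or non-mitotic columns alone, all genes of the interval, and the members without near-identical copies.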

Additional observations from a re-analysis of the deposited data

Results flagged for a closer look

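The effect of PITPNB against PC9-BrM4 differed in direction between R2 and C2. Both R2 columns, with 43.6 and 38.3 CPM, lay under the 45.7 and 45.8 CPM of PC9-BrM4, and both C2 columns, with 68.6 and 60.2 CPM, lay above them. The effect in R2 minus that in C2 was −0.59, and the difference was not tested.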

How the results depend on the processing

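No paired analysis was possible because each line had 1 library, so that libraries could not be paired, although the mitotic and non-mitotic columns of a line were compared within it. No called value changed sign. The medians of R2 against C2 and of PC9-BrM4 against PC9, both near 0, did so under the settings given with them. For C2/R2 against PC9/PC9-BrM4, the members' median effect of 0.68 was 0.82 with a pseudocount of 1, 0.44 with 20, 1.13 with a filter of 50 CPM, 0.52 without filter, 0.82 centred on all genes, 0.85 adjusted for transcript length, 0.52 over all genes of the interval and 0.62 without members that have copies. The proximal median of 0.97 was 1.03 and 0.70 with pseudocounts of 1 and 20, 1.13 at 50 CPM, 0.68 without filter, 1.11 centred and 0.71 over the interval. The distal median of 0.24 was 0.18 with a pseudocount of 20, 0.12 at 50 CPM, 0.38 centred and 0.33 adjusted for length. In place of 24 members higher by at least 0.5, there were 17 in the uncorrected counts, 18 with a pseudocount of 20 and 20 without rescaling. There were 13 at 50 CPM, where fewer genes are measured. The count was 25 centred, 26 without filter and 27 adjusted for length. Of the 13 higher by at least 1, 7 were left with a pseudocount of 20. The count of lower members, 0, was 1 in the uncorrected counts and 1 over the interval. The share of all genes higher by at least 0.5, 5.79%, was 2.80% in the uncorrected counts, 3.70% with a pseudocount of 20 and 3.02% without filter. Leaving out each column gave members' medians of 0.60 to 0.77, proximal medians of 0.87 to 1.01, distal medians of 0.21 to 0.33, and 21 to 26 members higher by at least 0.5 and 10 to 15 by at least 1.

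For R2 against C2, the uncorrected counts gave 6 higher members in place of 0, a pseudocount of 20 gave 0 lower in place of 1, a filter of 50 CPM gave a median of 0.16 in place of 0.08, and leaving out a column gave medians of −0.091 to 0.22, with 0 to 2 higher and 1 to 2 lower. For PC9-BrM4 against PC9, the median of −0.07 was −0.27 in the uncorrected counts, with 3 members lower in place of 0, −0.0064 at 50 CPM, 0.035 centred and 0.032 adjusted for length, and −0.16 to −0.017 with a column left out. For sub-population 8, the median of 0.58 was 0.77 in the uncorrected counts, 0.66 and 0.35 with pseudocounts of 1 and 20, 0.79 at 50 CPM, 0.50 without filter, 0.81 centred and 0.84 adjusted for length, and 0.54 to 0.61 with a column left out. The 21 higher members were 10 at 50 CPM and 19 to 23 with a column left out, and 2 in place of 1 were lower without filter. For mitotic columns, the median of 0.20 was 0.47 in the uncorrected counts, 0.14 with a pseudocount of 20, 0.016 at 50 CPM, 0.26 without rescaling, 0.016 centred and 0.026 adjusted for length, and 0.10 to 0.36 with a column left out. The count of higher members, 0, was 1 in the uncorrected counts, with a pseudocount of 1, without rescaling, and by asking for the same direction in all 4 lines, a rule added after seeing the data, and 0 to 1 with a column left out. The cause of these shifts was not tested. Under the alternatives, shares of all genes were computed for C2/R2 against PC9/PC9-BrM4 only. The counts of the other comparisons therefore have no share beside them there. The effects of the 14 members given in every large column were recomputed under the alternatives. Of these recomputed values, 144 moved by more than their counting error, 107 stayed within it, and 0 turned direction. The shifts of these values over 1.5 times in size were those of UFD1 and UBE2L3 in the uncorrected counts (1.63 and 2.10), TXNRD2 with a pseudocount of 20 (0.65) and EWSR1 centred (−0.24). The part of depth in the effects of the 11 members under 10 CPM was not tested.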
